A study of Arabidopsis thaliana with 12 samples.

Results

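Chloroplasts and mitochondria keep small genomes of their own. The chloroplast genome holds genes for photosystems, the ATP synthase, the large subunit of Rubisco and the plastid's own ribosomes and RNA polymerase, and the mitochondrial genome holds genes for the respiratory chain, its ATP synthase and mitochondrial ribosomes. Most other proteins of both organelles are nuclear-encoded and imported, so the 2 compartments depend on gene expression in the nucleus. Plant organelle mRNAs carry no stable poly(A) tail, and the short tails that do occur on them mark RNA for degradation. The libraries examined here were made with a kit that selects poly(A) RNA.

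The organelle-encoded genes were taken as all rows of the expression tables whose identifier begins with ATCG (chloroplast) or ATMG (mitochondrion) and whose value was above 0 in at least 6 of the 12 libraries. This gave 144 of 27371 genes, 79 of the 88 chloroplast rows and 65 of the 122 mitochondrial rows. The samples were whole 14-day-old *Arabidopsis* seedlings, grown at 23 °C on sugar-free plates in long days, in 4 groups of 3 libraries: *linc1-1* treated with *Pst hrcC*, *linc1-1* mock, wild type (WT, Col-0) treated with *Pst hrcC*, and WT mock. *linc1-1* is a single T-DNA insertion line in *LINC1*, a gene for a lamin-like nuclear protein, and no other allele or complemented line was analysed here. *Pst hrcC* is a *Pseudomonas syringae* strain without a functional type III secretion system, sprayed at an OD600 of 0.002 for 24 h. Values were in FPKM, fragment counts divided by transcript length and by the number of mapped fragments. *LINC1* read 2.12, 3.76 and 2.41 FPKM in *linc1-1* after *Pst hrcC* and 2.13, 2.09 and 2.17 FPKM in mock *linc1-1*, against 17.2, 23.2 and 28.3 FPKM in WT after *Pst hrcC* and 23.9, 22.0 and 23.4 FPKM in mock WT, so every library held the level of its labelled genotype.

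Of the chloroplast genes, 63 were above 0 in all 12 libraries, and of the mitochondrial genes 29. The median gene had a mean of 5.53 FPKM in the chloroplast set and 0.622 FPKM in the mitochondrial set. Of these, 1 chloroplast gene and 7 mitochondrial genes were above 0 in exactly 6 libraries, with values above 0 of 6164 to 29292 FPKM and 0.0658 to 2.69 FPKM. Just outside the limit, 1 chloroplast row and 4 mitochondrial rows were above 0 in 5 libraries, with 20081 to 50583 FPKM and 0.0568 to 1.88 FPKM. The 2 members ATMG00520 and ATMG01330 were above 0 mainly through values near zero, with means of 0.0339 and 3e-06 FPKM. The annotation at hand (TAIR10.1) uses other identifiers for organelle genes, and names them here only where its note on a nuclear gene gives an ATCG or ATMG identifier as the closest protein. It described 6 chloroplast and 29 mitochondrial members in this way. The remaining members are given by identifier.

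The chloroplast members added up to large and unsteady sums. They held 2.98%, 1.14% and 4.67% of total FPKM in *linc1-1* after *Pst hrcC*, 1.16%, 0.785% and 6.22% in mock *linc1-1*, 0.742%, 2.43% and 7.62% in WT after *Pst hrcC*, and 2.31%, 2.83% and 7.96% in mock WT. The ranges of the groups overlapped in each of the 4 comparisons. The widest group, WT after *Pst hrcC*, ran from 0.742% to 7.62%, and all 12 libraries from 0.742% to 7.96%. The mitochondrial members held 0.00350%, 0.00237% and 0.00712% in *linc1-1* after *Pst hrcC*, 0.00255%, 0.00549% and 0.00657% in mock *linc1-1*, 0.00542%, 0.00241% and 0.0136% in WT after *Pst hrcC*, and 0.00333%, 0.00235% and 0.00464% in mock WT. These groups overlapped as well.

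The denominator of both shares varied widely. Total FPKM ran between 904687 and 7037670 per library, a range of 7.78 times, and 2 nuclear genes exceeded 1000000 FPKM in a library. One of them, AT2G01021, read 3220960, 5828500 and 1850910 FPKM in *linc1-1* after *Pst hrcC*, against 3189620, 2730950 and 100838 FPKM in WT after *Pst hrcC*. Its lowest library, WT replicate 3 after *Pst hrcC*, was also the one with the highest mitochondrial share. The summed FPKM of the mitochondrial members itself varied 1.85 times over the 12 libraries, between 116 and 214 FPKM.

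A few chloroplast genes made up most of the chloroplast sum. There were 6 members that exceeded 1000 FPKM in a library, and they made up 96.9% to 99.6% of the chloroplast sum. Of these, 5 were listed either at 0 or at 2748 FPKM and above. ATCG00550 read 6164, 0 and 29292 FPKM in *linc1-1* after *Pst hrcC* and 8729, 25450 and 19618 FPKM in mock *linc1-1*, against 0 in all 3 WT libraries after *Pst hrcC* and 13696, 0 and 0 FPKM in mock WT. ATCG00560 read 23290, 54807 and 12234 FPKM in *linc1-1* after *Pst hrcC* and 22366, 0 and 8439 FPKM in mock *linc1-1*, against 0 in all 3 WT libraries after *Pst hrcC* and 13243, 0 and 37771 FPKM in mock WT. Both were listed at 0 in every WT library after *Pst hrcC*, but each was also listed at 0 in at least 1 library of *linc1-1* and in at least 1 of mock WT. ATCG00570, ATCG00630 and ATCG00700 were listed at 0 in 3, 4 and 2 of the 12 libraries and reached 28066, 76043 and 171446 FPKM elsewhere. ATCG01020 was above 0 throughout, with 599, 1021 and 1578 FPKM in *linc1-1* after *Pst hrcC* and 358, 276 and 2659 FPKM in mock *linc1-1*, against 283, 231 and 346 FPKM in WT after *Pst hrcC* and 740, 390 and 670 FPKM in mock WT.

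**Figure D1:**
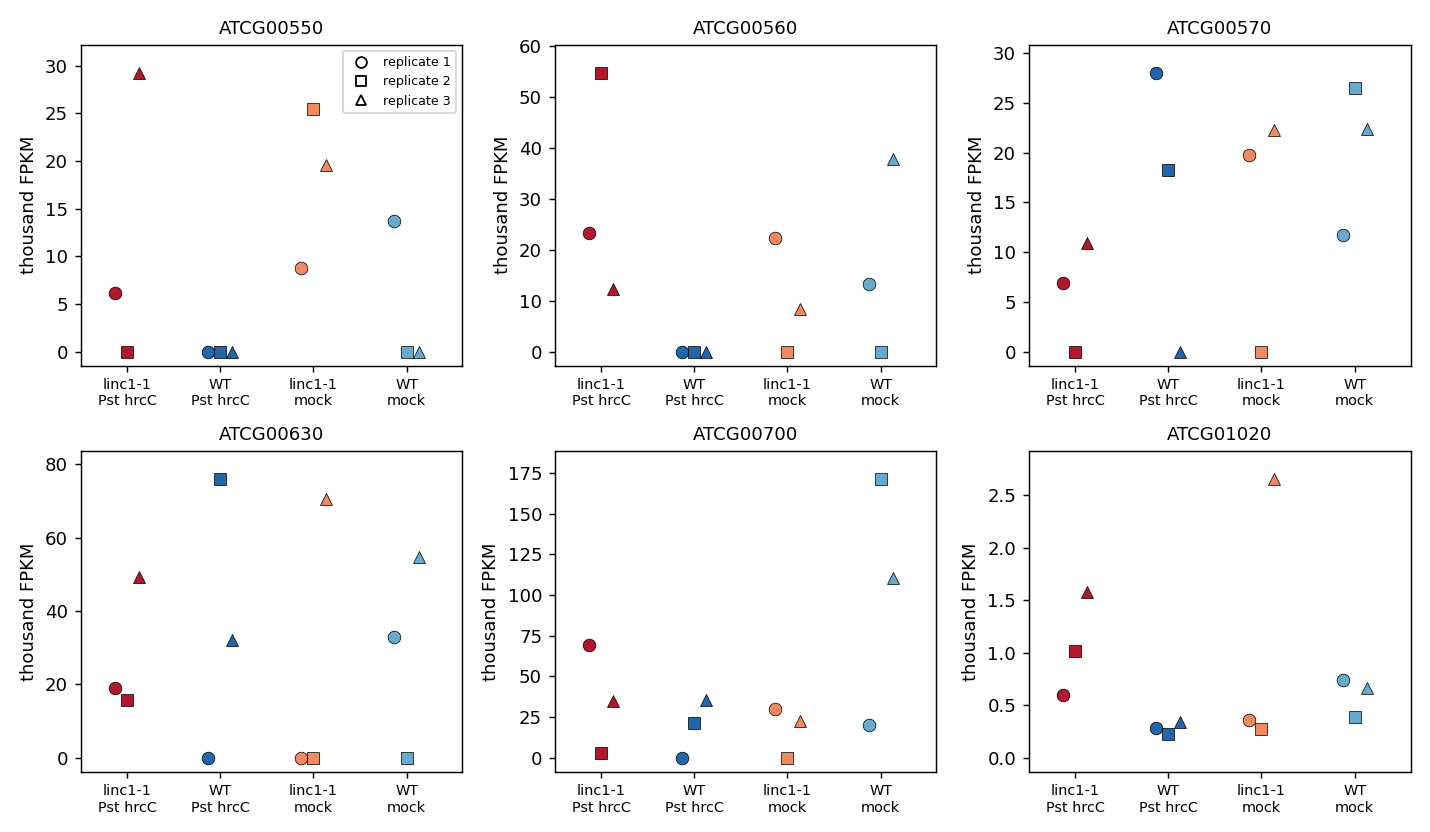
FPKM (axis in units of 1000) of the 6 chloroplast members that exceeded 1000 FPKM in a library, in each of the 12 libraries. Circles, squares and triangles are replicates 1, 2 and 3. ATCG01020 has no 0, and the other 5 genes sit at 0 in 2 to 6 libraries and at 2748 FPKM or above in the rest.

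A listed 0 was not read as missing RNA. *LHCB1.3*, a nuclear gene for a light-harvesting protein that green tissue uses, was listed at 0 in *linc1-1* replicate 1 after *Pst hrcC* and in mock *linc1-1* replicate 3, while its other 10 values were between 14917 and 25755 FPKM. In the annotation, 13 chloroplast coding sequences are shorter than 150 bases, and the shortest has 90. Which identifiers these are is not paired there with the names, so length could not be set beside the values at 0.

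Without the 134 genes that exceeded 1000 FPKM in a library, a limit chosen after the values were seen, the sums were close to each other. The other chloroplast members then added up to 629, 693 and 953 FPKM in *linc1-1* after *Pst hrcC* and 632, 791 and 723 FPKM in mock *linc1-1*, against 902, 656 and 809 FPKM in WT after *Pst hrcC* and 825, 800 and 829 FPKM in mock WT. They made up 0.234% to 0.373% of the remaining FPKM, a range of 1.596 times. Mean sums were 758 ± 172 FPKM in *linc1-1* and 789 ± 124 FPKM in WT after *Pst hrcC*, and 715 ± 79.9 FPKM in *linc1-1* and 818 ± 15.6 FPKM in WT under mock treatment (SD, n = 3 each). In the mock groups all 3 *linc1-1* sums were below all 3 WT sums, and after *Pst hrcC* the ranges overlapped. As shares of the remaining FPKM the mock groups overlapped, at 0.239%, 0.312% and 0.286% in *linc1-1* and 0.296%, 0.310% and 0.333% in WT. ATCG00020 alone gave 81.9, 123 and 82.5 FPKM of the mock *linc1-1* sums and 132, 206 and 166 FPKM of the mock WT sums. The order of the mock sums rests on this gene. The mitochondrial members averaged 172 ± 34.7 FPKM in *linc1-1* and 151 ± 54.6 FPKM in WT after *Pst hrcC*, and 173 ± 16.4 FPKM in *linc1-1* and 144 ± 18.5 FPKM in WT under mock treatment (SD, n = 3 each), with overlapping ranges in both. Sums over a chosen set of genes were not tested.

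**Figure D2:**
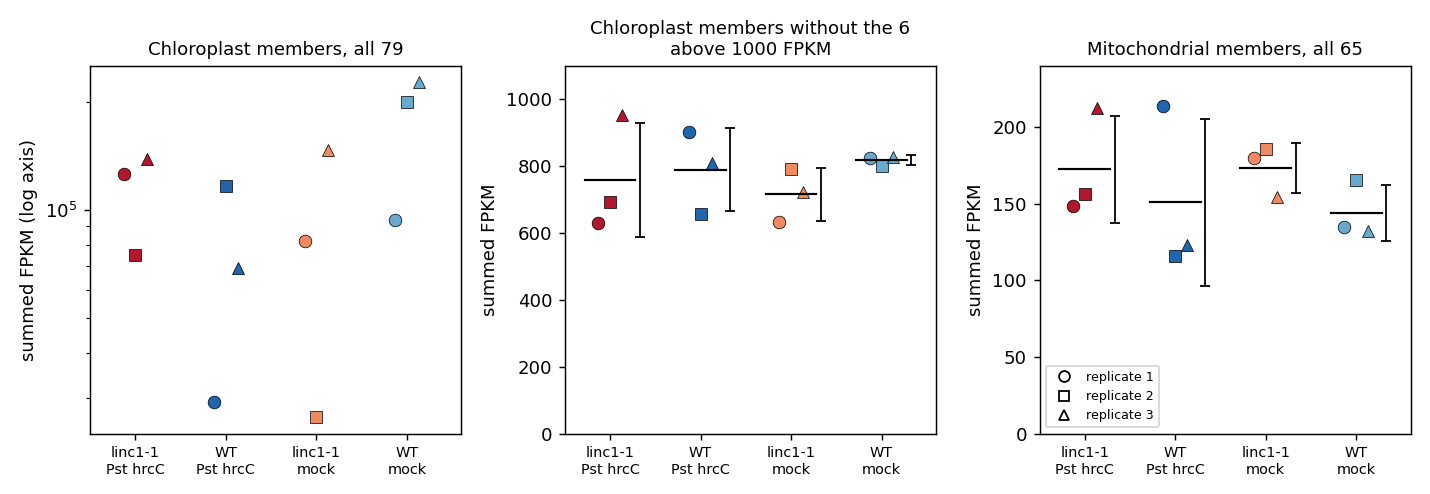
Summed FPKM per library of the 79 chloroplast members (left, log axis), of the chloroplast members without the 6 that exceeded 1000 FPKM (middle) and of the 65 mitochondrial members (right). Points are libraries, horizontal lines are group means and bars are 1 SD (n = 3 each); the left panel shows points only, spread between 26517 and 226474 FPKM, while the middle panel stays between 629 and 953 FPKM.

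Differences between groups were tested gene by gene with limma on log2(FPKM + 1), and a gene was called at a Benjamini-Hochberg adjusted p under 0.05 over all tested genes and a fold above 1.5. A fold on this scale understates the change of low genes. Of the members, 74 chloroplast and 25 mitochondrial genes reached the mean of 1 FPKM needed to be tested, among 16677 genes in all. The median residual SD on the log2 scale was 0.43 for the chloroplast genes and 0.36 for the mitochondrial genes, and 0.30 for the nuclear genes. The study describes the libraries as independent repeats. The labels only number them, so the p-values measure the spread between these libraries. Under both treatments, WT replicate 1 stood apart from the other WT libraries in nuclear genes for photosynthesis, so results without both of these libraries are also given. In whole seedlings, fewer cells of a type and less RNA per cell cannot be told apart.

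The first comparison asked which genes depend on *LINC1* after *Pst hrcC*. No chloroplast and no mitochondrial gene was called between *linc1-1* and WT after *Pst hrcC*, where 0.432% of all tested genes were, and the smallest adjusted p from limma was 0.144 among the chloroplast and 0.175 among the mitochondrial genes. Before adjustment, 7 chloroplast genes and 1 mitochondrial gene had p under 0.05 and a fold above 1.5 upward, against 6.61% of all tested genes, and 2 and 1 downward, against 3.92%. Of these higher chloroplast genes, ATCG00550, ATCG00560, ATCG01060, ATCG01120 and ATCG01300 were listed at 0 in at least 1 WT library after *Pst hrcC*, so their differences rest partly on such values. ATCG00550 was above 0 in exactly 6 libraries, all of *linc1-1* except WT mock replicate 1. It thus met the inclusion limit through its *linc1-1* values, and its place among the higher members is not support for a difference. The median log2 fold change was 0.06 for the chloroplast genes and 0.20 for the mitochondrial genes, beside 0.14 over all tested genes. All 3 values shifted with the scaling of the libraries. With factors from nuclear genes, the median of all tested genes moved to 0.01, that of the chloroplast genes to −0.06 and that of the mitochondrial genes to 0.07.

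The second comparison, *linc1-1* against WT under mock treatment, gave no call in either organelle and 0.036% of all tested genes called. By the unadjusted p and the fold, 1 chloroplast and 3 mitochondrial genes were higher, against 1.8% of all tested genes, and 1 chloroplast gene was lower, against 2.81%. The higher chloroplast gene, ATCG00550, was listed at 0 in WT mock replicates 2 and 3, and it met the inclusion limit through its *linc1-1* values. Chloroplast genes had a median log2 fold change of −0.09, with 44 of 74 below 0, and mitochondrial genes one of 0.24, with 20 of 25 above 0, beside a median of 0.01 over all tested genes. Of all 16677 tested genes, 8493 were above 0 and 8171 below. Genes measured in the same libraries are not independent, so these counts are not replicates of a difference between the lines. The spread of the set median between replicate libraries was 0.19 for the chloroplast genes, more than the size of their median, and 0.17 for the mitochondrial genes, less than theirs. This spread is that of single libraries, while a fold change compares means of 3 libraries, so it is only a rough yardstick. On leaving out 1 library, the chloroplast median ran between −0.20 and 0.01, above 0 without WT mock replicate 3. The mitochondrial median was 0.13 without WT mock replicate 1, 0.14 without *linc1-1* mock replicate 1 and 0.11 without both WT replicate 1 libraries, each below the spread of 0.17.

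**Figure D3:**
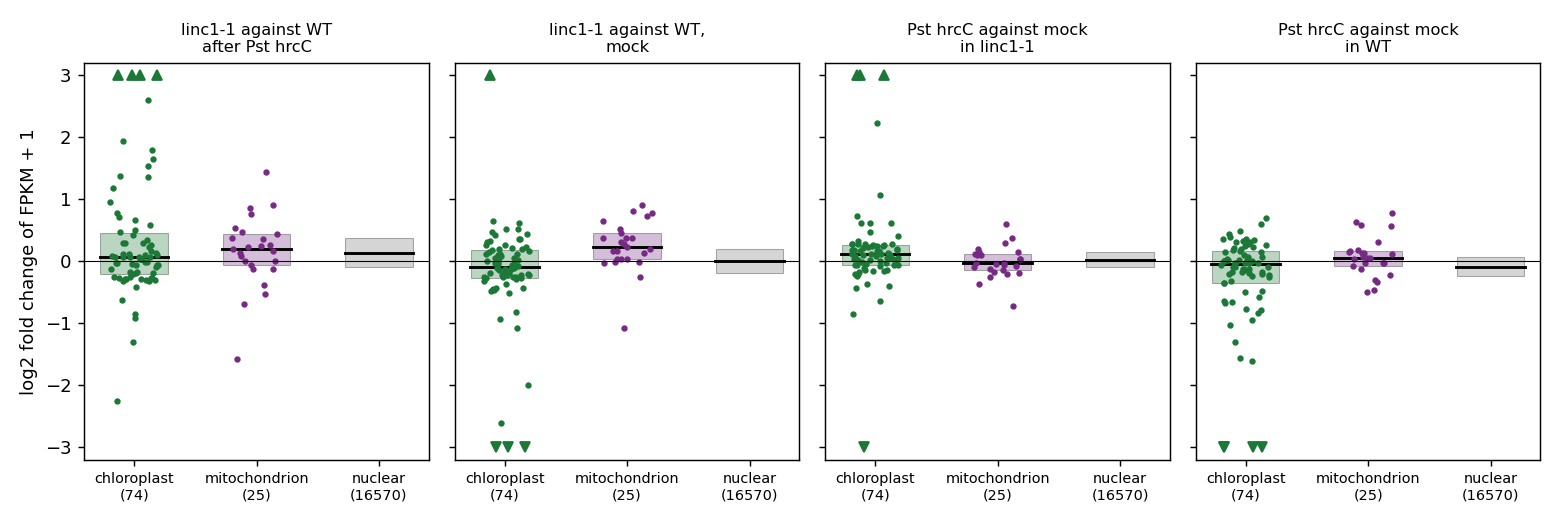
Log2 fold changes (FPKM + 1) of the 74 chloroplast and 25 mitochondrial genes tested, 1 point each, in 4 comparisons. Boxes span the quartiles and black lines are medians, also drawn for the 16570 nuclear genes without points; triangles at the edges stand for members beyond 3 or −3, and the medians of all sets lie between −0.09 and 0.24.

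Some chloroplast genes stood apart in *linc1-1* by the order of their values. ATCG00020, the seventh in mean FPKM among the chloroplast members, read 68.3, 63.6 and 169 FPKM in *linc1-1* after *Pst hrcC* and 81.9, 123 and 82.5 FPKM in mock *linc1-1*, against 179, 138 and 176 FPKM in WT after *Pst hrcC* and 132, 206 and 166 FPKM in mock WT. The mock groups did not overlap, and after *Pst hrcC* only *linc1-1* replicate 3 lay within the WT range. Its log2 fold change was −0.85 (SE 0.36, adjusted p = 0.288 in limma) after *Pst hrcC* and −0.81 (SE 0.36, adjusted p = 0.622) under mock treatment. ATCG00270 followed it closely, with 8.71, 8.63 and 14.6 FPKM in *linc1-1* after *Pst hrcC* and 9.89, 10.9 and 8.18 FPKM in mock *linc1-1*, against 16.5, 12.2 and 14.1 FPKM in WT after *Pst hrcC* and 11.04, 14.97 and 14.5 FPKM in mock WT. These 2 were the most alike pair of the 77 members compared, with a correlation of log2 values of r = 0.95 over the 12 libraries, which share depth and scaling.

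In the other direction, ATCG00710 read 32.1, 22.7 and 29.4 FPKM in *linc1-1* after *Pst hrcC*, against 7.22, 22.3 and 9.76 FPKM in WT after *Pst hrcC*, without overlap. The mock groups overlapped, at 17.4, 33.5 and 20.1 FPKM in *linc1-1* and 18.8, 16.3 and 33.5 FPKM in WT. ATCG01060 read 17.5, 15.7 and 12.7 FPKM in *linc1-1* after *Pst hrcC*, against 0, 9.79 and 5.89 FPKM in WT after *Pst hrcC*, with mock values of 4.44, 13.5 and 13.9 FPKM in *linc1-1* and 11.8, 11.7 and 11.8 FPKM in WT. In limma, the log2 fold change after *Pst hrcC* was 1.18 (SE 0.40, adjusted p = 0.204) for ATCG00710 and 1.94 (SE 0.71, adjusted p = 0.231) for ATCG01060. Groups that did not overlap after *Pst hrcC* were found for 7 chloroplast and 5 mitochondrial genes that were higher in *linc1-1*, against 14.9% of all tested genes, and for 1 chloroplast gene that was lower, against 6.19%. Under mock treatment 3 chloroplast and 3 mitochondrial genes were higher without overlap, against 7.08% of all tested genes, and 5 and 1 were lower, against 8.84%.

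The next most abundant chloroplast genes overlapped between the lines under both treatments. ATCG00490, next in mean FPKM after ATCG00020, read 65.4, 70.4 and 90.7 FPKM in *linc1-1* after *Pst hrcC* and 61.9, 106 and 61.2 FPKM in mock *linc1-1*, against 128, 53.5 and 48.7 FPKM in WT after *Pst hrcC* and 80.2, 71.5 and 55.8 FPKM in mock WT. ATCG00330 was steadier, at 57.7, 82.0 and 72.7 FPKM in *linc1-1* after *Pst hrcC* and 57.5, 71.6 and 49.1 FPKM in mock *linc1-1*, against 57.9, 61.8 and 51.1 FPKM in WT after *Pst hrcC* and 59.4, 56.8 and 70.2 FPKM in mock WT. Its log2 fold change was 0.30 (SE 0.21, adjusted p = 0.485 in limma) in *linc1-1* against WT after *Pst hrcC* and −0.08 (SE 0.21, adjusted p = 0.958) under mock treatment.

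Among the chloroplast genes with a description, ATCG00670 encodes the plastid-encoded subunit of the Clp protease, which degrades stromal proteins. It read 2.23, 2.90 and 5.45 FPKM in *linc1-1* after *Pst hrcC* and 1.94, 2.31 and 4.56 FPKM in mock *linc1-1*, against 3.17, 1.72 and 4.99 FPKM in WT after *Pst hrcC* and 2.74, 2.19 and 2.60 FPKM in mock WT, and all groups overlapped. The 3 described ribosomal protein genes, for L20, S11 and L2, had mean levels between 2.91 and 7.41 FPKM. Of these, ATCG00750 (S11, in the small subunit) read 2.47, 3.803 and 2.91 FPKM in *linc1-1* after *Pst hrcC* and 2.14, 2.26 and 2.90 FPKM in mock *linc1-1*, against 8.20, 4.80 and 3.47 FPKM in WT after *Pst hrcC* and 5.13, 2.57 and 3.87 FPKM in mock WT. Its log2 fold change was −0.62 (SE 0.27, adjusted p = 0.297 in limma) after *Pst hrcC* and −0.47 (SE 0.27, adjusted p = 0.724) under mock treatment. ATCG01310 (L2, in the large subunit), a gene of the inverted repeat, whose reads cannot be assigned to one of its copies, differed by 0.06 on the log2 scale (SE 0.19, adjusted p = 0.892 in limma) after *Pst hrcC*. In the annotation, 7 chloroplast protein genes lie at 2 places, so other members may share reads and count as 2 genes. ATCG00840 and ATCG01300, for example, both read 15.2 FPKM in *linc1-1* replicate 2 and 0 in WT replicate 3 after *Pst hrcC*. ATCG00430, described as photosystem II reaction center protein G, and ATCG00530, described as CemA-like, had log2 fold changes of −0.30 (SE 0.44) and −0.19 (SE 0.42) after *Pst hrcC*. The description of ATCG00430 comes from the note on AT5G11770, an NADH-ubiquinone oxidoreductase 20 kDa subunit, so it was not taken as a photosystem II gene.

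**Figure D4:**
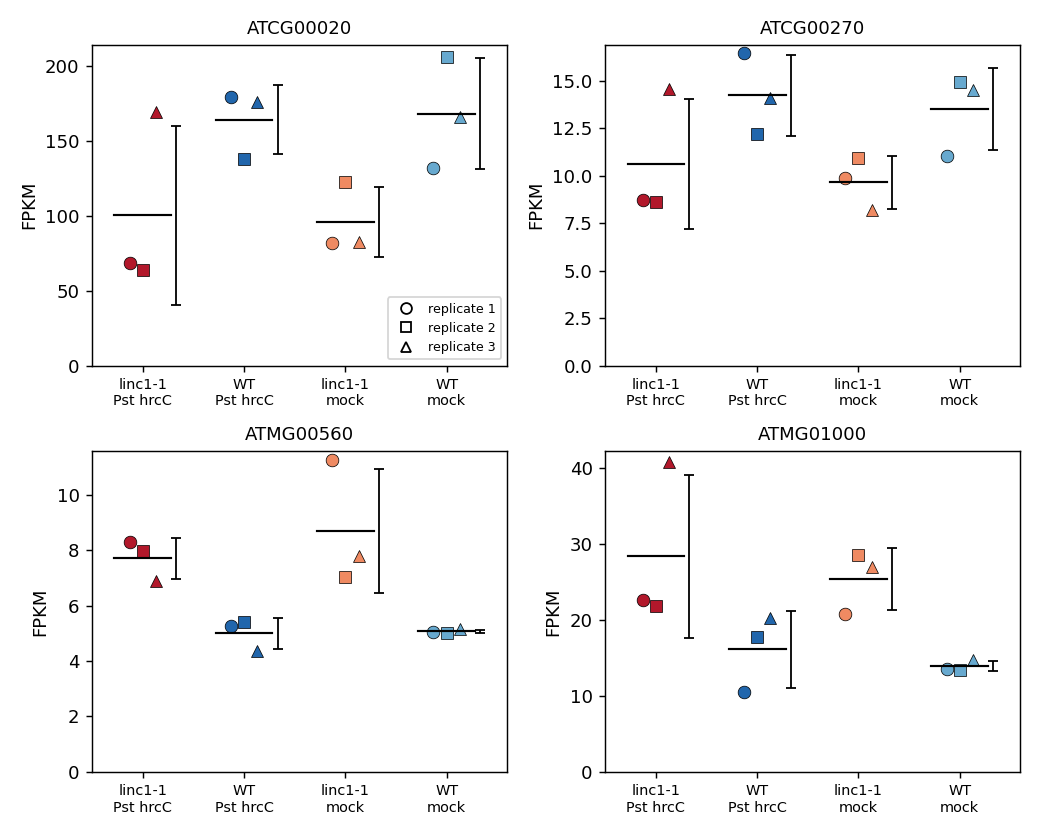
FPKM of 2 chloroplast and 2 mitochondrial genes in each library. Points are replicates 1 (circle), 2 (square) and 3 (triangle), horizontal lines are group means and bars are 1 SD (n = 3 each). ATCG00020 and ATCG00270 are lower in *linc1-1* than in WT of the same treatment, apart from *linc1-1* replicate 3 after *Pst hrcC*, and ATMG00560 and ATMG01000 are higher in all 6 *linc1-1* libraries than in any WT library.

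Mitochondrial genes were low. The highest, ATMG00030, read 45.1, 45.2 and 61.0 FPKM in *linc1-1* after *Pst hrcC* and 61.4, 65.3 and 40.9 FPKM in mock *linc1-1*, against 95.5, 26.7 and 28.5 FPKM in WT after *Pst hrcC* and 56.8, 70.2 and 37.9 FPKM in mock WT. Its pattern was closest to that of a chloroplast gene, ATCG00490 (r = 0.86 over the 12 libraries), and both had their highest value in WT replicate 1 after *Pst hrcC*. The median r was 0.25 over 1653 pairs of chloroplast genes, 0.35 over 171 pairs of mitochondrial genes and 0.08 over 1102 pairs of one of each.

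A pair of mitochondrial genes was higher in every *linc1-1* library than in every WT library. ATMG00560 read 8.29, 7.96 and 6.88 FPKM in *linc1-1* after *Pst hrcC* and 11.2, 7.02 and 7.81 FPKM in mock *linc1-1*, against 5.26, 5.40 and 4.36 FPKM in WT after *Pst hrcC* and 5.05, 5.02 and 5.14 FPKM in mock WT. ATMG01000 read 22.6, 21.8 and 40.8 FPKM in *linc1-1* after *Pst hrcC* and 20.8, 28.5 and 27.0 FPKM in mock *linc1-1*, against 10.5, 17.8 and 20.2 FPKM in WT after *Pst hrcC* and 13.6, 13.4 and 14.7 FPKM in mock WT. Such an order over both treatments was found for these 2 of the 99 members tested and, among all tested genes, for 1.82% that were higher and 1.15% that were lower in *linc1-1*. ATMG00560 differed on the log2 scale by 0.54 (SE 0.17, adjusted p = 0.183 in limma) after *Pst hrcC* and 0.65 (SE 0.17, adjusted p = 0.315) under mock treatment, and ATMG01000 by 0.77 (SE 0.28, adjusted p = 0.233) and 0.82 (SE 0.28, adjusted p = 0.483).

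The genotypes were therefore also compared over both treatments, a contrast added after the values were seen. The order of ATMG00560 and ATMG01000 prompted it, so their p-values in it are not an independent test and cannot be taken at face value. ATMG00560 was then the only member called, 0.59 higher in *linc1-1* on the log2 scale (SE 0.12, adjusted p = 0.0336 in limma), where 2.09% of all tested genes were called. By the unadjusted p and the fold, 3 chloroplast and 3 mitochondrial genes were higher, against 4.13% of all tested genes, and 2 and 1 were lower, against 3.93%. The call held in 7 of 18 other settings, with adjusted p between 0.00780 and 0.0941 and a log2 fold change between 0.50 and 0.68, and was lost with factors from nuclear genes (adjusted p = 0.0674), with quantile normalization (adjusted p = 0.0513) and on leaving out any single library other than mock *linc1-1* replicate 2 and WT replicate 1 of either treatment. ATMG01000 differed by 0.79 (SE 0.20, adjusted p = 0.0635 in limma) and ATCG00020 by −0.83 (SE 0.25, adjusted p = 0.108).

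ATMG00560 is the closest protein of a nuclear gene, AT2G07715 (described as a nucleic acid-binding, OB-fold-like protein), which in TAIR10.1 lies at chr2:3410597-3413161. Over its whole length of 2565 bases this gene aligned to bases 220629 to 223193 of the mitochondrial genome, at the locus of *rpl2*, a gene for a protein of the large ribosomal subunit, with 4 mismatches. Of these, 3 lie in the *rpl2* coding sequence, namely C520T, C521T and G807A (mitochondrial base, position counted from the first base of the start codon along the genome, base on chromosome 2). The mitochondrial sequence of TAIR10.1 may differ from that of the TAIR10 build used for the FPKM values. The stretches around the 3 bases are shown because reads that miss these bases fit both places, with the differing bases in capitals.
mitochondrial rpl2: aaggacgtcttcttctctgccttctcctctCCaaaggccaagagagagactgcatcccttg
AT2G07715: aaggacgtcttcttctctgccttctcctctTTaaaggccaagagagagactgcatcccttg
mitochondrial rpl2: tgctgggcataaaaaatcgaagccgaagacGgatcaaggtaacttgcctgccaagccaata
AT2G07715: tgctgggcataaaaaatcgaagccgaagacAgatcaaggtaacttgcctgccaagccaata

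The first pair runs over bases 222061 to 222121 of the minus strand of the mitochondrial genome and chr2:3411669-3411729, and the second over bases 221774 to 221834 and chr2:3411956-3412016. AT2G07715 itself read 0.983 to 1.497 FPKM in the 6 *linc1-1* libraries and 0.744 to 1.15 FPKM in the 6 WT libraries, with overlap. Added to ATMG00560, it gave 8.02 to 12.7 FPKM in *linc1-1* and 5.51 to 6.38 FPKM in WT, again without overlap.

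Many of the mitochondrial genes had such a second place in the nuclear genome. In TAIR10.1, 265718 of the 367808 bases of the mitochondrial genome (72.2%) had a match on chromosome 2 of at least 1000 bases at 99% identity or more, and the main block of these matches ran between bases 3239038 and 3509765. Of the mitochondrial members, 31 had a nuclear gene that the notes tie to them and that was 99.7% to 100% identical to mitochondrial sequence, 14 of them without a mismatch. A read from such a stretch cannot be assigned to one genome by sequence, and the values of both genes are uncertain. The gene for subunit 9 of the ATP synthase (*atp9*), ATMG01080, shows it. Its 225 coding bases lie in an aligned stretch without a mismatch to AT2G07671. The first 60 bases are given with the start codon in capitals, for bases 271126 to 271185 of the mitochondrial genome and chr2:3252021-3252080, both on the minus strand.
mitochondrial atp9: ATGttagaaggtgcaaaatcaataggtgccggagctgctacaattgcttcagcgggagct
AT2G07671: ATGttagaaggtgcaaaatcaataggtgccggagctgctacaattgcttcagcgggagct

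Of the 29 such pairs in which the nuclear gene was in the tables, the mean FPKM of the member was within 2 times that of the nuclear gene in 21, at least 2 times higher in 6 and at most 0.5 times as high in 2. ATMG00560 was among the 6, at a mean of 6.62 FPKM against 1.09 FPKM for AT2G07715. Of the 25 mitochondrial genes tested, 13 had no such copy in the notes. Their median log2 fold change was 0.20 after *Pst hrcC* and 0.24 under mock treatment, the same to 2 decimals as that of all 25. A gene without such a note, ATMG01000 among them, may still have a copy, since 72.2% of the mitochondrial genome matched chromosome 2. The equal medians therefore do not compare genes with and without a copy.

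Among the described mitochondrial genes, the highest mean was that of ATMG01080, for subunit 9 of the ATP synthase, and its groups overlapped in every comparison. It read 5.74, 6.96 and 9.80 FPKM in *linc1-1* after *Pst hrcC* and 7.11, 7.76 and 7.75 FPKM in mock *linc1-1*, against 13.9, 8.27 and 3.15 FPKM in WT after *Pst hrcC* and 6.74, 14.2 and 8.01 FPKM in mock WT. ATMG01190, for subunit 1, had a mean of 1.95 FPKM and ATMG00480, for subunit 8, one of 1.39 FPKM, with log2 fold changes of −0.12 (SE 0.24) and −0.69 (SE 0.38) after *Pst hrcC*. The other 2 described subunit genes, ATMG00410 and ATMG01090, were below the mean of 1 FPKM.

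Of the respiratory chain, ATMG01320, for subunit 2 of the NADH dehydrogenase, the entry complex of the chain, read 4.01, 4.14 and 3.77 FPKM in *linc1-1* after *Pst hrcC* and 5.20, 3.53 and 3.10 FPKM in mock *linc1-1*, against 3.31, 3.36 and 2.15 FPKM in WT after *Pst hrcC* and 1.48, 3.09 and 3.45 FPKM in mock WT. After *Pst hrcC* the groups did not overlap, and the difference was 0.35 on the log2 scale (SE 0.24, adjusted p = 0.477 in limma). ATMG00990, for subunit 3 of the same complex, had log2 fold changes of 0.08 (SE 0.50) after *Pst hrcC* and 0.91 (SE 0.50) under mock treatment. ATMG00730, for subunit 3 of cytochrome c oxidase, the last complex of the chain, had 0.23 (SE 0.23) and 0.14 (SE 0.23). ATMG00220, for cytochrome b, was low, with a mean of 0.592 FPKM, and was not tested. ATMG00180, for a protein of cytochrome c assembly, had log2 fold changes of 0.01 (SE 0.19) after *Pst hrcC* and 0.20 (SE 0.19) under mock treatment.

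Ribosomal protein S12 (ATMG00980), in the small subunit, read 3.74, 15.8 and 6.70 FPKM in *linc1-1* after *Pst hrcC* and 3.51, 6.79 and 4.03 FPKM in mock *linc1-1*, against 9.28, 1.98 and 0 FPKM in WT after *Pst hrcC* and 5.63, 2.72 and 2.25 FPKM in mock WT. Its mean was 5.21 FPKM, against 5.05 FPKM for its nuclear copy AT2G07675, which is identical over the aligned stretch. ATMG01220, described as a protein of unknown function, had lower values in *linc1-1* under mock treatment, with 0.433, 0 and 0.738 FPKM in *linc1-1* after *Pst hrcC* and 0, 0 and 0.357 FPKM in mock *linc1-1*, against 6.70, 0.266 and 5.64 FPKM in WT after *Pst hrcC* and 1.19, 0.575 and 2.67 FPKM in mock WT. The mock groups did not overlap. In limma it differed by −1.57 on the log2 scale (SE 0.59, adjusted p = 0.238) after *Pst hrcC* and −1.07 (SE 0.59, adjusted p = 0.714) under mock treatment, and without WT replicate 2 after *Pst hrcC* it was called, at −2.40 (adjusted p = 0.0313).

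The response to *Pst hrcC* was then compared within each line. In *linc1-1*, no member was called after *Pst hrcC* against mock, where 0.606% of all tested genes were. The unadjusted p and the fold picked no higher member, against 2.79% of all tested genes, and 1 lower one, ATMG00640, against 0.372%. It read 1.26, 0.757 and 2.48 FPKM in *linc1-1* after *Pst hrcC*, against 3.50, 3.41 and 2.11 FPKM in mock *linc1-1*, which differed by −0.72 on the log2 scale (SE 0.27, adjusted p = 0.816 in limma). In *linc1-1*, groups without overlap were found for 2 chloroplast genes that were higher after *Pst hrcC*, ATCG00640 and ATCG01000, against 7.45% of all tested genes, and for 1 that was lower, ATCG00190, against 4.16%. The chloroplast median was 0.12 and the mitochondrial median −0.03, beside 0.02 over all tested genes.

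In WT, no member was called after *Pst hrcC* against mock, where 0.18% of all tested genes were. Without adjustment, 1 chloroplast gene was higher, against 2.16% of all tested genes, and 2 were lower, against 1.1%. ATCG00900 read 7.71, 6.71 and 13.6 FPKM in WT after *Pst hrcC* and 4.39, 4.12 and 7.26 FPKM in mock WT, which differed by 0.70 on the log2 scale (SE 0.29, adjusted p = 0.927 in limma). The lower ones were ATCG00560 and ATCG01060, which were listed at 0 in 3 and 1 of the WT libraries after *Pst hrcC*. Groups without overlap were found in WT for 1 higher chloroplast gene, ATCG01230, against 2.9% of all tested genes, and for 3 lower ones, ATCG00740, ATCG01020 and ATCG01060, against 5.14%. The chloroplast median was −0.05 and the mitochondrial median 0.05, beside −0.09 over all tested genes.

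No member was called for the difference of the 2 responses, and neither was any other tested gene (0%). By the unadjusted p and the fold in limma, the difference was positive for 3 chloroplast genes, ATCG00560, ATCG00640 and ATCG01060, against 1.38% of all tested genes, and negative for none, against 0.612%. Each of these was listed at 0 in at least 1 WT library after *Pst hrcC*. ATCG00640 read 10.2, 22.5 and 9.01 FPKM in *linc1-1* after *Pst hrcC* and 1.85, 0 and 7.96 FPKM in mock *linc1-1*, against 0, 4.64 and 18.1 FPKM in WT after *Pst hrcC* and 21.5, 4.94 and 11.2 FPKM in mock WT. The response to *Pst hrcC* over both lines, added after the values were seen, gave no called member, against 1.07% of all tested genes, and none by the unadjusted p and the fold, against 2.64% higher and 0.366% lower.

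Nuclear genes that serve the organelles were set beside them. Of the nuclear photosynthesis genes (16 tested), the genes for plastid transcription (19), organelle RNA processing and decay (11) and the respiratory chain (13), none was called by limma in the 4 comparisons of groups. By the unadjusted p and the fold, 6 were higher (*RBCS1A*, *PTAC3*, *PTAC10*, *FSD2*, *RNJ* and *ATP2-1*) and 1 lower (*AOX1A*) in *linc1-1* after *Pst hrcC*, and 1 was higher (*PTAC7*) and 1 lower (*AOX1A*) under mock treatment. Of all tested genes, 6.61% were higher and 3.92% lower by this rule after *Pst hrcC*, and 1.8% and 2.81% under mock treatment. Their median log2 fold changes in *linc1-1* against WT were 0.43, 0.41, 0.36 and 0.42 after *Pst hrcC* and 0.21, 0.33, 0.22 and 0.09 under mock treatment, in the order just given. The chloroplast genes had 0.06 and −0.09, and all tested genes 0.14 and 0.01. *FSD2*, for a chloroplast superoxide dismutase, had the largest difference of the plastid transcription list after *Pst hrcC*, at 1.12 (SE 0.38, adjusted p = 0.204 in limma), and *PTAC7* under mock treatment, at 0.88 (SE 0.38, adjusted p = 0.616). *AOX1A*, the alternative oxidase of the respiratory chain, went the other way, at −0.66 (SE 0.28, adjusted p = 0.291) after *Pst hrcC* and −0.76 (SE 0.28, adjusted p = 0.532) under mock treatment. In the RNA processing list the largest were *CSP41A*, at 0.64 (SE 0.35) after *Pst hrcC*, and *CSP41B*, at 0.60 (SE 0.53) under mock treatment. *LHCB1.3* had the largest fitted difference of the photosynthesis list, which rests on its 2 values at 0. In response to *Pst hrcC*, the largest differences in each list were *PSBQ2* (0.32, SE 0.27), *PTAC10* (−0.22, SE 0.28), *MORF2* (−0.16, SE 0.20) and *AOX1A* (−0.25, SE 0.28) in *linc1-1*, and *LHCB3* (−0.38, SE 0.61), *PTAC3* (−0.42, SE 0.27), *CSP41A* (−0.43, SE 0.35) and the ATP synthase gene *ATP2-1* (−0.38, SE 0.19) in WT.

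WT replicate 1 stood apart from the other WT libraries in these nuclear lists, and less so in the organelle genes. Photosynthesis genes were higher in WT replicate 1 than in the mean of WT replicates 2 and 3 in 15 of 16 cases under each treatment, with median log2 differences of 0.85 after *Pst hrcC* and 0.82 under mock treatment. The plastid transcription genes had medians of 0.34 and 1.04. Chloroplast-encoded genes had medians of 0.19 and −0.01, and mitochondrial genes 0.24 and −0.23. Centred per gene, the median log2 level of the photosynthesis genes ran from −0.01 to 0.47 in the *linc1-1* libraries. In WT replicate 1 it was 0.39 after *Pst hrcC* and 0.64 under mock treatment. WT replicates 2 and 3 were below all of these, at −0.78 to −0.22. Which of the WT libraries were unusual was not tested. Of the 9 root genes, 6 were tested, and their summed level was lowest in WT replicate 2 after *Pst hrcC*. It ran between 16.4 and 40.1 FPKM in the *linc1-1* libraries and between 9.8 and 47.6 FPKM in the WT libraries, with up to 2 of the 9 at 0. The photosynthesis genes added up to 42854 to 69872 FPKM in the *linc1-1* libraries and 31800 to 70647 FPKM in the WT libraries. The 2 lowest *linc1-1* sums, 42854 and 43339 FPKM, are those of the libraries in which *LHCB1.3* was listed at 0. The part of tissue makeup in the organelle values was not tested.

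**Figure D5:**
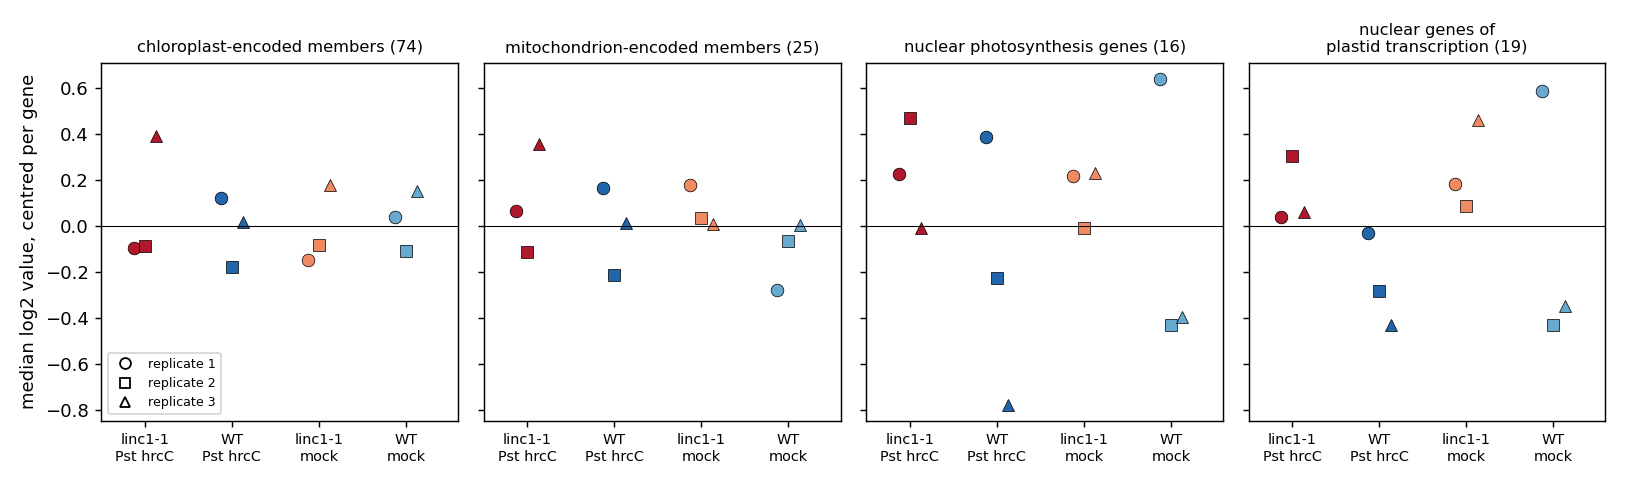
Median over genes of the log2(FPKM + 1) value, centred on each gene's mean over the 12 libraries, for the tested chloroplast and mitochondrial genes and for 2 nuclear lists, 1 point per library (circle, square and triangle for replicates 1, 2 and 3). WT replicate 1 lies above WT replicates 2 and 3 in both nuclear lists and both treatments, and the chloroplast medians lie between −0.18 and 0.39.

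Without both WT replicate 1 libraries, 18% of all tested genes were called in *linc1-1* against WT after *Pst hrcC* and 10% under mock treatment. Of the genes tested, 1 of 72 chloroplast and 1 of 24 mitochondrial genes were among them after *Pst hrcC*, ATCG00840 and ATMG00980, both listed at 0 in WT replicate 3 after *Pst hrcC*. Under mock treatment 3 chloroplast genes were, ATCG00190, ATCG00550 and ATCG00820, and no mitochondrial gene. Of these, ATCG00550 met the inclusion limit through its *linc1-1* values. Over both treatments 19.4% of all tested genes were called, with 4 chloroplast and 3 mitochondrial genes among them. After *Pst hrcC* the median SE was 0.32 for chloroplast and 0.27 for mitochondrial genes, beside 0.19 over all tested genes, so calls were harder to reach. By groups without overlap, 16 of 72 chloroplast and 9 of 24 mitochondrial genes were higher in *linc1-1*, against 5306 of 16527 tested genes. Lower were 2 and 0, against 2963 of all tested genes. Of the 16 nuclear photosynthesis genes, 8 were called as higher after *Pst hrcC* and 6 under mock treatment. These same genes had been high in the 2 libraries left out, so their counts and medians here follow in part from that choice. The chloroplast median was 0.17 after *Pst hrcC* and −0.03 under mock treatment and the mitochondrial median 0.26 and 0.11, beside 0.72 and 0.61 for the nuclear photosynthesis genes. A single *linc1-1* library moved the organelle medians in the other direction. *linc1-1* replicate 3 after *Pst hrcC* had the highest median level of all libraries in both organelles, 0.39 in the chloroplast and 0.36 in the mitochondrial genes, and without it the median log2 fold changes in *linc1-1* against WT after *Pst hrcC* were −0.11 and 0.07.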

How the data were processed

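Poly(A)-selected RNA from whole seedlings was sequenced as paired ends in 12 libraries, 3 for each combination of line and treatment. The authors deposited FPKM values for 27371 genes, per the submitters' notes made with TopHat 2.1.1 and Cufflinks 2.2.1 on TAIR10. FPKM keeps no read counts, so depth is unknown, no counting interval can be given, and a value of 0 may be a failed estimate. How reads that fit several places were treated is not given in the sources used here.

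Groups were taken from the labels. limma 3.58.1 in R 4.3.3 was run on log2(FPKM + 1), keeping 16677 genes whose average reached 1 FPKM (a mean-dependent prior, all 4 groups in 1 fit), and p-values were adjusted over all of these genes. The script was tested on simulated data. A further 2 contrasts, each averaged over treatments or lines, were added after the data were seen. The members and gene lists were chosen with earlier results of these data known. Members described in full were those past an unadjusted p of 0.05 and the fold of 1.5, the most abundant ones and those with a description. Organelle genes that the rule named by symbol could not be matched to identifiers. Mitochondrial and nuclear sequences of TAIR10.1 (RefSeq) were aligned with blastn 2.17.0. The numbers of replicates do not pair the libraries in these fits, because the labels give no shared source and only 4 of 18 correlations between libraries of the same number were above 0.1. This count cannot exclude a shared source. Alternatives were another pseudocount, no minimum, 2 other scalings, the compared groups alone, a replicate block and fits without single libraries.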

Additional observations from a re-analysis of the deposited data

How the results depend on the processing

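In the 5 planned comparisons, no member was called with another pseudocount, without the minimum, with either other scaling or with the replicate block. By the unadjusted p and the fold, the chloroplast counts were 9 after *Pst hrcC* and 2 under mock treatment in *linc1-1* against WT, 3 for the response in WT, 3 for the difference of the responses and 5 over both treatments, and the mitochondrial counts were 2, 3, 1 for the response in *linc1-1*, and 4 over both treatments. A fit of the compared groups alone called 1 chloroplast gene after *Pst hrcC*, ATCG00560. Without both WT replicate 1 libraries, 1 chloroplast and 1 mitochondrial gene were called after *Pst hrcC*, 3 chloroplast genes under mock treatment, and 4 and 3 over both treatments, and the mitochondrial median of the difference of the responses was 0.12, against −0.10 with them. Over both treatments, 0 mitochondrial genes were called with factors from nuclear genes, 0 with quantile normalization, and 2, ATMG00560 and ATMG01000, with the replicate block. The block changed no other count of members. Of 18 correlations between libraries of the same number, 4 were above 0.1, with a range of −0.21 to 0.45. The highest was that of the WT replicate 1 libraries, and the other WT pairs had 0.08 and 0.20.

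Leaving out 1 library at a time gave 0 to 2 chloroplast and 0 to 2 mitochondrial genes called over both treatments, 0 to 1 mitochondrial gene after *Pst hrcC* (ATMG01220, without WT replicate 2), and 0 in the other counts. Without the 2 genes above 1000000 FPKM, the mean chloroplast share was 14.6% in *linc1-1* and 9.45% in WT after *Pst hrcC*, and 9.57% in *linc1-1* and 18.3% in WT under mock treatment. The mean mitochondrial share was then 0.0223% and 0.0210% after *Pst hrcC*, and 0.0245% and 0.0160% under mock treatment, each pair *linc1-1* then WT. Without all genes above 1000 FPKM, the mean chloroplast share was 0.285% in *linc1-1* and 0.306% in WT after *Pst hrcC*, and 0.279% in *linc1-1* and 0.313% in WT under mock treatment, and the mean mitochondrial share was 0.0648% and 0.0586% after *Pst hrcC*, and 0.0674% and 0.0551% under mock treatment, in the same order. The cause of these changes was not tested beyond the smaller denominators. Shares weighted by transcript length were not run, since the annotation gives no length for the organelle identifiers, and fits of the compared groups alone could not give the difference of the responses. For members that passed the unadjusted p and the fold in a planned comparison, 431 values under other settings kept their direction and side of the threshold, 3 passed it (ATCG00550, ATCG00560 and ATMG01220) and 0 changed sign. These members were picked by their changes in the same data. Neither the replicate block nor leaving out a library outside the compared groups can change a fold. The kept signs were therefore partly fixed in advance. Members outside that choice that were called without both WT replicate 1 libraries were ATCG00840, ATMG00980, ATCG00190 and ATCG00820. Depth is unknown, and low members are limited by it most.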
